A study of Mus musculus with 6 samples.

Results

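The genes of the integrated stress response and the unfolded protein response were examined in mouse hematopoietic cells that had been transduced with a retrovirus encoding the leukemia fusion oncogene MLL-AF9. The 37 genes were chosen by symbol as known members of these pathways, and all 37 were present among the 24062 genes of the count table. Of these, 4 encode stress sensors, 2 encode partners of the eIF2α phosphatase, 14 belong to the ATF4 arm and 17 to the ATF6/XBP1 arm. The KO-labelled group held 3 libraries from lineage-negative cells of A20 f/f Rosa Cre-ER mice, and the WT-labelled group held 3 libraries from the same kind of cells of A20 +/+ Rosa Cre-ER mice. Lineage-negative cells are those left after removal of cells with markers of mature blood lineages. MLL-AF9, the tamoxifen-activated Cre and exposure to 1 µM 4-hydroxytamoxifen for 48 h were common to both groups, as was a medium with serum, IL-6, IL-3 and SCF. By its labels the comparison is about induced deletion of A20, the product of Tnfaip3, which edits ubiquitin chains and dampens NF-κB signalling. The counts do not measure that deletion.

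The integrated stress response begins with kinases that phosphorylate the translation factor eIF2α, which lowers general protein synthesis and favours translation of the transcription factor ATF4. The unfolded protein response is set off in the endoplasmic reticulum (ER) by the sensors PERK, IRE1α and ATF6, which raise chaperones, ER-associated degradation (ERAD) and, through PERK, ATF4. In blood-forming and leukemic cells these pathways are known to affect survival when nutrients or protein folding fail. Counts per gene measure RNA level, so eIF2α phosphorylation, Xbp1 splicing and ATF4 translation were not measured.

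The target motifs of both arms were looked up in the members' promoters, because the arms are defined by the factors that bind there. RefSeq windows on GRCm38.p6, the assembly also called mm10, run from 250 bases before to 50 after a gene's start. They were found for 34 members in 38 windows, and Atf6, Ppp1r15b and Manf had none. The motifs were searched on both strands, and no matches overlapped. The ER stress response element (ERSE), CCAAT followed after 9 bases of any kind by CCACG, occurred in 8 of 16 ATF6/XBP1 arm genes with a window and in 0 of 14 ATF4 arm genes, against 0.119% of 32817 windows of the same length. The 8 genes were Hspa5, Hsp90b1, Calr, Canx, Pdia6, Dnajc3, Creld2 and Syvn1. ERSE-II, ATTGG and CCACG around a single base, occurred in Herpud1 and in 0.0366% of all windows. The core of the unfolded protein response element, TGACGTG, occurred in Hspa5 and in 2.01% of all windows. Stretches around the matches in the most abundant chaperones, in Creld2 and in Herpud1 are given 5′ to 3′ on the gene's strand, because they hold the motifs of the arm in which no gene passed the test. The match is in capitals, with up to 30 bases on either side, and a match on the opposite strand appears as its reverse complement.
Hspa5, chr2:34771995-34772073, plus strand: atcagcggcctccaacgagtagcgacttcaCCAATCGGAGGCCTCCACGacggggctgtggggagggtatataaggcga
Hsp90b1 upstream site, chr10:86705608-86705686, minus strand: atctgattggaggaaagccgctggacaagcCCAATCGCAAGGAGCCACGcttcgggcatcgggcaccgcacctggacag
Hsp90b1 downstream site, chr10:86705503-86705581, minus strand: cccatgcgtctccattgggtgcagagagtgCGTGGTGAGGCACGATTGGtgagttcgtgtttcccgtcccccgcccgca
Calr, chr8:84847045-84847123, minus strand: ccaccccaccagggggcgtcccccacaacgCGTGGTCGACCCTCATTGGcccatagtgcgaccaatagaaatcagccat
Creld2, chr15:88819490-88819568, plus strand: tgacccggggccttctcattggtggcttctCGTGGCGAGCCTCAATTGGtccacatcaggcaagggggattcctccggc
Herpud1, chr8:94386347-94386417, plus strand: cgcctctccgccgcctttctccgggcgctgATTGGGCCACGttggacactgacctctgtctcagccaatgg

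The element of C/EBP and ATF4 dimers, known as CARE and searched as TGATGNAAN, occurred in 5 of 14 ATF4 arm genes, in 1 of 16 ATF6/XBP1 arm genes and in 3.96% of all windows. The genes were Asns, Chac1, Nupr1, Trib3 and Vldlr in the ATF4 arm and Herpud1 in the other. The Trib3 match lay 13 bases after the start. In Vldlr it lay in the second of its 2 windows, which belongs to a start inside the gene, and the 14 ATF4 arm genes had 17 windows in all. The matches before the start are shown because Vldlr is among the members that changed, and because Herpud1 held motifs of both arms.
Asns, chr6:7693210-7693262, minus strand: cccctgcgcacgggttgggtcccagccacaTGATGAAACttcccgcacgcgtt
Chac1, chr2:119351018-119351086, plus strand: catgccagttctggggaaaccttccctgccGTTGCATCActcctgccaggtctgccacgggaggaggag
Nupr1, chr7:126625543-126625611, minus strand: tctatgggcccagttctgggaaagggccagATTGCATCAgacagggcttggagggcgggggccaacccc
Vldlr, chr19:27216789-27216857, plus strand: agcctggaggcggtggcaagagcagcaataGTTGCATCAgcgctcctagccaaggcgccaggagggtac
Herpud1, chr8:94386286-94386354, plus strand: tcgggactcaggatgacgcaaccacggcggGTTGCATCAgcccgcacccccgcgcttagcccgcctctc

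The targeted gene went against its label, so groups are named here by their labels. Tnfaip3 stood at 100.1, 74.1 and 79.1 CPM in the KO-labelled group and at 7.39, 8.67 and 8.24 CPM in the WT-labelled group. Its counts cover all exons. Whether labels or columns were exchanged could not be settled from the counts, and an exchange would turn the direction of every difference reported here. CPM are read counts scaled to a common library size, here after TMM adjustment between libraries. The libraries held 16113320 to 24168326 counted reads in the KO-labelled group and 17095581 to 25415274 in the WT-labelled group. Xist, transcribed from the inactive X of female cells, was at 0 to 4.77 CPM in the KO-labelled and 564 to 2109 CPM in the WT-labelled libraries, so label and donor sex cannot be told apart. Replicate 1 stood apart in both groups. Gapdh was at 2716, 254 and 248 CPM in KO-labelled replicates 1, 2 and 3 and at 2645, 181 and 167 CPM in WT-labelled replicates 1, 2 and 3. KO-labelled replicates 2 and 3 were the closest pair (chi-square per degree of freedom 2.44, above sampling noise, against 26.6 for WT-labelled replicates 2 and 3). Nothing in the labels ties the replicates to separate animals or cultures, and the p-values therefore reflect the spread of these libraries, possibly a technical one. Of 8 leukocyte and myeloid marker genes all were detected, with a summed level of 3354 to 4662 CPM in the KO-labelled and 1102 to 4713 CPM in the WT-labelled libraries. The low WT-labelled value was that of replicate 1. Single genes differed more than the sums. KO-labelled and WT-labelled means were 207.2 and 24.8 CPM for Csf1r, 1016.3 and 362.4 for Cd33, and 349.8 and 124.0 for Fcer1g. The means of Ptprc, Spi1 and Itgam were also higher, and those of Cebpa (193.6 and 209.5) and Lyz2 (735.8 and 1612.6) lower. Of the 8 genes 2 were called higher and 0 lower, against 13.7% of all tested genes in each direction. Among markers of B and plasma cells, plasma cells being known for high XBP1 activity, Pax5 had no reads in any library. The list summed to 85.2 to 271 CPM in the KO-labelled and 2.92 to 6.26 CPM in the WT-labelled libraries, nearly all from Sdc1 in the KO-labelled group. Lists for T, erythroid, mast, megakaryocytic and stromal cells summed to at most 6.45 CPM in any KO-labelled and 41.1 CPM in any WT-labelled library. The megakaryocytic list summed to 0.86 to 1.07 CPM in the KO-labelled and 26.6 to 41.1 CPM in the WT-labelled libraries, with 3 of 4 genes called lower. The mast cell list summed to 3.65 to 6.45 and 17.7 to 26.2 CPM, with 2 of 5 called lower. The T and stromal lists each had 1 gene called higher and the erythroid list had 0 calls.

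For most of the stress genes the difference between the groups did not pass the test. Of 37 members, all of which passed the filter on low counts, 3 rose and 1 fell in the KO-labelled libraries at an adjusted p under 0.05 in edgeR's quasi-likelihood test. That was 10.8% of the members, while 27.3% of the 12126 tested genes were called. Vldlr, Atf5 and Ppp1r15b rose, and Ern1 fell. An unadjusted p under 0.05 was reached by 8 of 37 members and by 39.8% of all tested genes. The median log2 fold change was −0.05 over the members and −0.04 over all tested genes, and the median of its absolute size was 0.25 and 0.38. For 26 of 37 members the 95% interval of the fold change lay inside a 2-fold difference in either direction, against 54.6% of all tested genes. The members were also the more abundant genes, with a median of 101 CPM against 34.5 CPM. The groups did not overlap for 10 of 37 members, while 47.6% of all tested genes did not overlap. DESeq2 called 7 members and 33.7% of all tested genes, and limma-voom 4 members and 27.1%. With WT-labelled replicate 1 left out, 12 members were called, against 42.8% of all tested genes. Only Vldlr and Ern1 were called without KO-labelled replicate 2 or 3 or either of WT-labelled replicates 2 and 3, with 15.0%, 15.4% and 19.8% of all tested genes called without the first 3 of these, and 1223 higher and 1260 lower of 12400 without the last. In bulk RNA, a smaller share of cells that express a gene and less RNA per cell cannot be told apart.

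**Figure D1:**
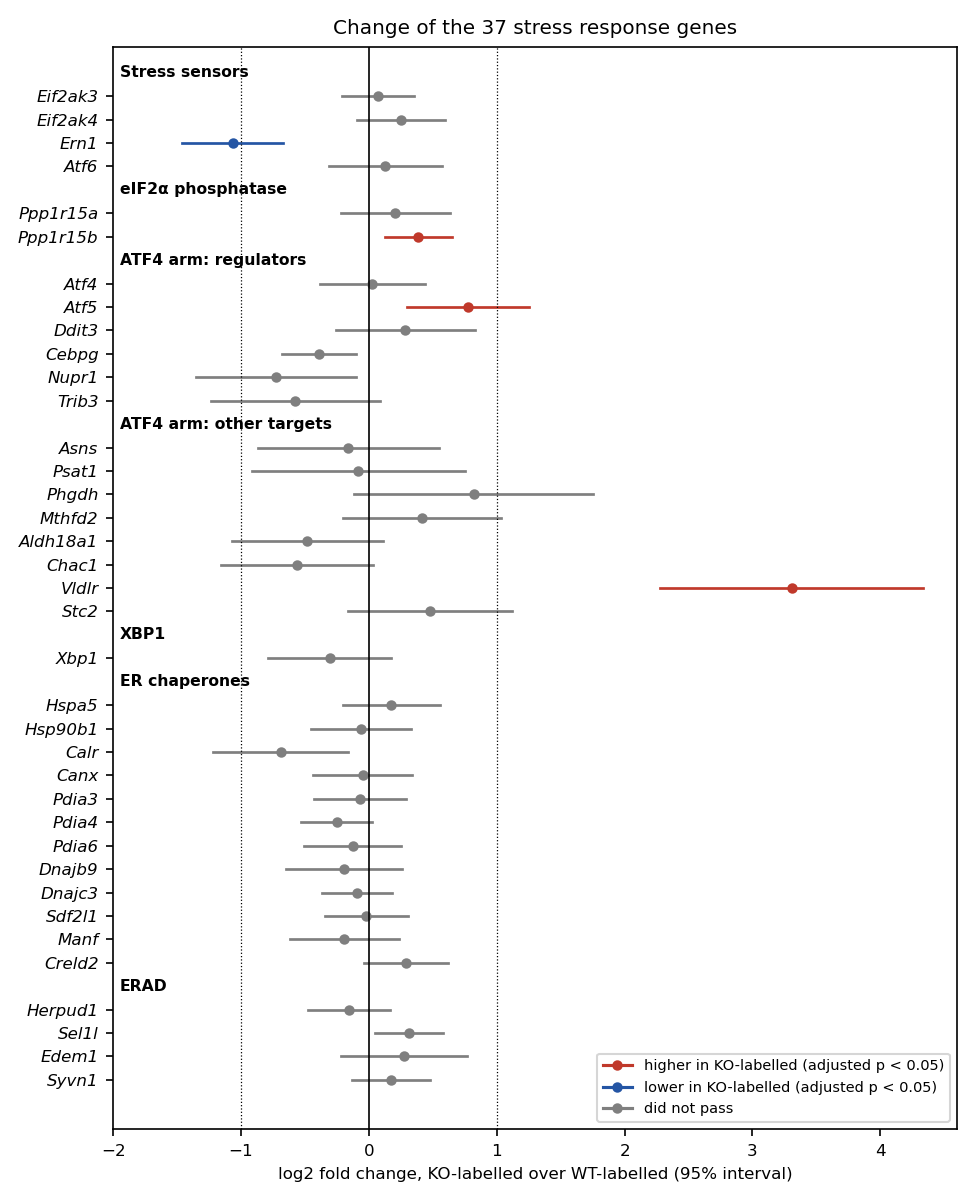
The log2 fold change of each of the 37 genes, KO-labelled over WT-labelled (x axis), is drawn as a point with its 95% interval from edgeR, with the genes grouped by role from top to bottom. Red marks the 3 genes that rose, blue the 1 that fell and grey those that did not pass, and dotted lines mark a 2-fold difference. Most grey intervals of ER chaperones and ERAD genes lie between the dotted lines, while Vldlr lies far to the right.

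Among the 4 sensors only Ern1 (ENSMUSG00000020715.9, chr11:106394650-106487852 on GRCm38), which encodes the kinase and RNase IRE1α, passed the test. Ern1 was at 41.9, 42.6 and 45.2 CPM in the KO-labelled group and at 70.3, 97.2 and 103.9 CPM in the WT-labelled group. All KO-labelled libraries lay below all WT-labelled ones, and the mean was 43.2 ± 1.77 CPM in the KO-labelled and 90.4 ± 17.8 CPM in the WT-labelled group (SD, n = 3 each). The log2 fold change was −1.06 (SE 0.17, edgeR adjusted p = 0.0041). The call was lost only when replicates 2 and 3 were summed in each group (−0.97, adjusted p = 0.077). Eif2ak3, which encodes PERK, was at 46.8, 51.8 and 56.7 CPM in the KO-labelled and 47.7, 49.0 and 51.2 CPM in the WT-labelled libraries. Eif2ak4, the amino acid sensor GCN2, was at 53.2, 50.001 and 50.1 CPM in the KO-labelled and 38.0, 39.6 and 51.3 CPM in the WT-labelled libraries. Atf6 was at 116.7, 122.6 and 121.8 CPM in the KO-labelled and 80.3, 118.2 and 131.7 CPM in the WT-labelled libraries, where replicate 1 was the low one. These 3 sensors overlapped between the groups, and their fold changes were 1.05, 1.19 and 1.09 with 95% intervals of 0.86 to 1.28, 0.94 to 1.51 and 0.80 to 1.49.

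Ppp1r15b (ENSMUSG00000046062.5, chr1:133131143-133139783), the constitutive partner that directs the phosphatase to eIF2α, rose slightly, while its stress-induced counterpart Ppp1r15a did not pass. Ppp1r15b was at 198.9, 219.7 and 216.1 CPM in the KO-labelled and 162.8, 160.9 and 161.6 CPM in the WT-labelled libraries. The groups did not overlap, and the log2 fold change was 0.39 (SE 0.11, edgeR adjusted p = 0.039). The call was lost when KO-labelled replicate 1, 2 or 3 was left out (adjusted p = 0.052, 0.17 and 0.15), as with WT-labelled replicate 2 or 3 (0.096 and 0.094) and under 6 other alternatives. Of its 31-base words, 11.2% occur in transcripts of other genes, most in the opposite-strand gene Gm26616. Ppp1r15a was at 13.6, 16.5 and 16.4 CPM in the KO-labelled and 11.6, 15.4 and 13.2 CPM in the WT-labelled libraries, which overlapped.

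Of the 6 transcriptional regulators of the ATF4 arm only Atf5 passed. Atf4 itself was at 362, 516 and 500.5 CPM in the KO-labelled and 443, 444 and 467 CPM in the WT-labelled libraries. KO-labelled replicate 1 was the lowest of the 6 and the other KO-labelled replicates the highest, and the fold change was 1.02 with a 95% interval of 0.77 to 1.36. Atf5 (ENSMUSG00000038539.15, chr7:44812256-44816658), a related factor linked to mitochondrial stress, was at 60.2, 87.1 and 79.6 CPM in the KO-labelled and 34.3, 50.1 and 48.5 CPM in the WT-labelled libraries. The groups did not overlap, although replicate 1 was lowest in each. Its log2 fold change was 0.77 (SE 0.20, edgeR adjusted p = 0.029), and the call was lost when replicate 2 or 3 of the KO-labelled group (0.11 and 0.093) or of the WT-labelled group (0.061 and 0.064) was left out, and under 4 other alternatives. Exons of Atf5 overlap those of Nup62 and Il4i1 on the opposite strand, and no source used here gives the strand setting of the counting. Such overlaps occur in 12 of the 37 members, among them Ppp1r15a, Ppp1r15b, Ddit3, Manf and Hsp90b1. Of the 31-base words of Hsp90b1, 12.3% occur in transcripts of other genes, most in the opposite-strand gene 1810014B01Rik.

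The death-linked factor Ddit3, also called CHOP, was at 19.5, 22.6 and 17.7 CPM in the KO-labelled and 11.5, 19.2 and 18.5 CPM in the WT-labelled libraries. These ranges overlapped, and WT-labelled replicate 1 was the low library. The fold change was 1.22 with a 95% interval of 0.84 to 1.78. Cebpg, a dimer partner of ATF4, was at 42.1, 46.2 and 49.3 CPM in the KO-labelled and 63.7, 61.6 and 54.9 CPM in the WT-labelled libraries. The groups did not overlap, but the gene did not pass (log2 fold change −0.39, edgeR adjusted p = 0.055). Nupr1, a small chromatin protein induced by stress, was at 11.8, 15.3 and 14.6 CPM in the KO-labelled and 14.7, 28.6 and 25.5 CPM in the WT-labelled libraries. Trib3, a pseudokinase that feeds back on ATF4, averaged 12.3 ± 3.68 CPM in the KO-labelled and 18.3 ± 4.02 CPM in the WT-labelled libraries (SD, n = 3 each). Neither Nupr1 nor Trib3 passed the test (edgeR adjusted p = 0.086 and 0.18).

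**Figure D2:**
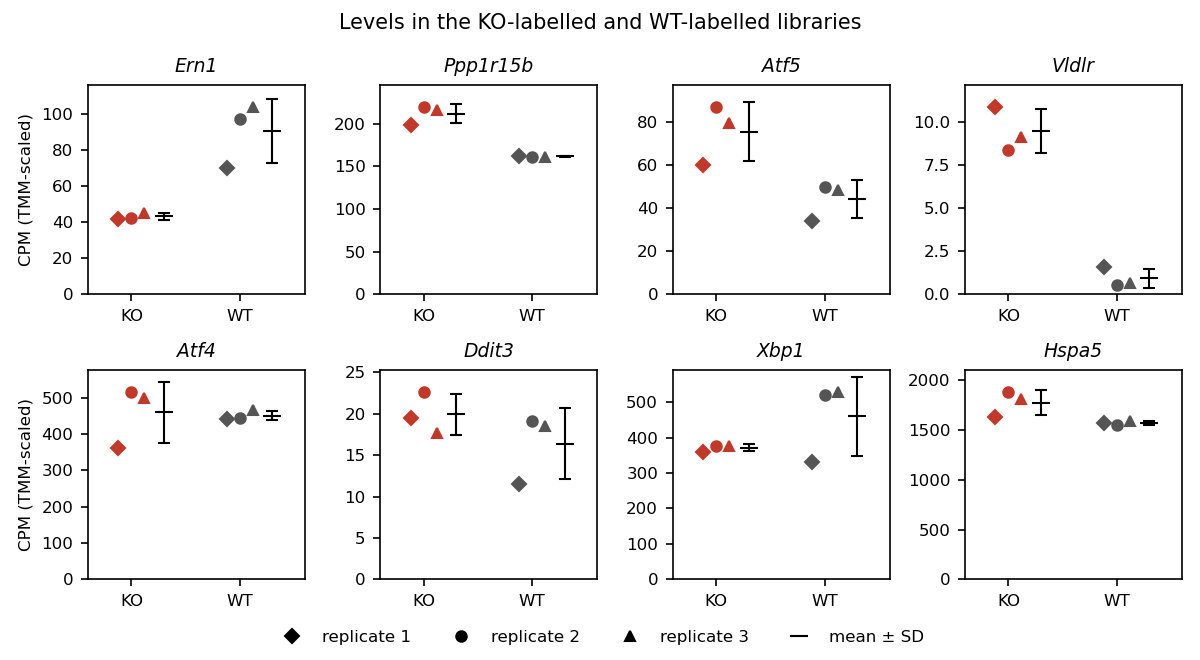
TMM-scaled CPM (y axis, from 0) of 8 genes in each KO-labelled library (left, red) and each WT-labelled library (right, grey), with a marker shape for each replicate and the mean ± SD of 3 libraries in black. Ern1 lies lower and Ppp1r15b, Atf5 and Vldlr lie higher in all KO-labelled libraries, while Atf4, Ddit3 and Xbp1 overlap. Hspa5 does not overlap but did not pass the test.

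Vldlr (ENSMUSG00000024924.14, chr19:27216484-27254231), which encodes a lipoprotein receptor, showed the largest change among the 37 members. It was at 10.9, 8.36 and 9.13 CPM in the KO-labelled and 1.59, 0.57 and 0.65 CPM in the WT-labelled libraries. These levels came from 241, 193 and 153 reads in the KO-labelled and from 38, 10 and 13 reads in the WT-labelled libraries. Every KO-labelled library exceeded every WT-labelled one. The log2 fold change was 3.31 (SE 0.43, edgeR adjusted p = 0.0020), a 9.89-fold difference with a 95% interval of 4.86 to 20.1. This call was kept under all 20 alternatives, with adjusted p up to 0.035. The log2 fold change was 3.94 without WT-labelled replicate 1, which held the most Vldlr reads of its group, and 3.80 in replicates 2 and 3 alone. Per kilobase of exon, Vldlr remained the least abundant member, at 0.94 ± 0.13 RPKM in the KO-labelled and 0.09 ± 0.06 RPKM in the WT-labelled libraries.

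The 5 members that encode enzymes of serine, one-carbon, proline and asparagine synthesis did not pass the test over all 6 libraries, and WT-labelled replicate 1 lay above its companions for each. Phgdh, the first enzyme of serine synthesis, was at 505, 475 and 454 CPM in the KO-labelled and 467, 178 and 168 CPM in the WT-labelled libraries. The KO-labelled libraries were alike, and among the WT-labelled ones only replicate 1 reached their range. Psat1, the next step, was at 233, 315 and 296 CPM in the KO-labelled and 483, 202 and 208 CPM in the WT-labelled libraries. Asns, which makes asparagine, was at 52.5, 71.5 and 67.3 CPM in the KO-labelled and 107.5, 50.6 and 55.8 CPM in the WT-labelled libraries. For Psat1 and Asns the highest library of all 6 was WT-labelled replicate 1. Mthfd2, of the mitochondrial folate pathway, was at 68.3, 94.8 and 94.4 CPM in the KO-labelled and 90.2, 48.1 and 55.0 CPM in the WT-labelled libraries. Aldh18a1, which begins proline synthesis, was at 68.9, 93.4 and 90.7 CPM in the KO-labelled and 163, 87.1 and 103.3 CPM in the WT-labelled libraries. Their log2 fold changes were 0.82, −0.08, −0.16, 0.41 and −0.48 in the order above, with edgeR adjusted p of 0.17 to 0.89.

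Without WT-labelled replicate 1, Phgdh, Mthfd2 and Psat1 rose, with log2 fold changes of 1.47, 0.74 and 0.46 (edgeR adjusted p = 1.4e-04, 0.012 and 0.042). In that fit 22.0% of all tested genes rose. Of the 31-base words of Phgdh, 56.3% occur in transcripts of other genes, most in the gene model Gm7901, so its counts are uncertain. Chac1, which degrades glutathione, was at 3.47, 5.24 and 5.07 CPM in the KO-labelled and 6.34, 6.66 and 7.35 CPM in the WT-labelled libraries, without overlap and without passing the test (edgeR adjusted p = 0.14). Stc2, a secreted glycoprotein, was at 14.9, 28.3 and 29.1 CPM in the KO-labelled and 14.9, 17.9 and 19.2 CPM in the WT-labelled libraries. Stc2 passed without KO-labelled replicate 1 (log2 fold change 0.73, adjusted p = 0.036).

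In the ATF6/XBP1 arm 0 of 17 members passed by edgeR or limma-voom, which called 27.3% and 27.1% of all tested genes. An unadjusted p under 0.05 was reached by 2 members, against 39.8% of all tested genes. DESeq2 called Sel1l higher and Calr lower, where it called 33.7% of all tested genes. Without WT-labelled replicate 1, edgeR called 3 lower, Xbp1, Dnajb9 and Calr, where 20.8% of all tested genes fell. Xbp1, whose spliced mRNA encodes the active factor, was at 360.2, 376 and 377 CPM in the KO-labelled and 331, 519 and 528 CPM in the WT-labelled libraries. The KO-labelled libraries lay between WT-labelled replicate 1 and its companions. Without that replicate Xbp1 fell, by 0.49 on the log2 scale (edgeR adjusted p = 0.010). Hspa5, the chaperone BiP that holds the sensors inactive, was at 1635, 1882 and 1808 CPM in the KO-labelled and 1571, 1553 and 1588 CPM in the WT-labelled libraries. The groups did not overlap, yet the fold change of 1.13 had a 95% interval of 0.87 to 1.47 and did not pass (adjusted p = 0.46).

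Of the 12 ER chaperones and folding factors none passed by edgeR, and their log2 fold changes ran from −0.69 for Calr to 0.29 for Creld2. Calr, the calcium-binding lectin chaperone calreticulin, was at 1761, 1955 and 1953 CPM in the KO-labelled and 3875, 2451 and 2825 CPM in the WT-labelled libraries. All KO-labelled libraries were lower, and the edgeR adjusted p was 0.060. Calr passed with library totals, with upper-quartile scaling and without WT-labelled replicate 1 (edgeR adjusted p = 0.046, 0.047 and 0.049), and with DESeq2 (0.0031). Calr also passed in replicates 2 and 3 alone (log2 fold change −0.45, edgeR adjusted p = 0.012), where 52.9% of all tested genes were called. Its membrane-bound relative Canx averaged 727 ± 37.8 CPM in the KO-labelled and 752 ± 103.8 CPM in the WT-labelled libraries. Hsp90b1, the ER form of HSP90, averaged 1566 ± 151 CPM in the KO-labelled and 1635 ± 12.5 CPM in the WT-labelled libraries. The disulfide isomerase Pdia3 averaged 850.5 ± 72.5 CPM in the KO-labelled and 891 ± 41.7 CPM in the WT-labelled libraries. For Canx, Hsp90b1 and Pdia3 the difference was smaller than the larger of the group SDs, and the 95% intervals of the fold change lay between 0.73 and 1.26. The related isomerases Pdia4 and Pdia6 had fold changes of 0.84 and 0.92, with 95% intervals of 0.69 to 1.02 and 0.70 to 1.19. The J-domain cochaperones Dnajb9 and Dnajc3 had fold changes of 0.87 and 0.94. Sdf2l1, Manf and Creld2, soluble ER proteins induced by folding stress, had fold changes of 0.99, 0.88 and 1.22.

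Of the 4 ERAD genes none passed by edgeR. Sel1l and Syvn1, which form the membrane ligase complex that exports misfolded proteins, averaged 211.5 ± 3.23 and 70.7 ± 3.49 CPM in the KO-labelled group and 170.0 ± 11.1 and 62.7 ± 7.30 CPM in the WT-labelled libraries. Sel1l did not overlap between the groups, but its adjusted p was 0.080. Edem1, a lectin that sorts glycoproteins for degradation, was at 442, 387 and 382 CPM in the KO-labelled and 239.5, 386 and 377 CPM in the WT-labelled libraries. Only WT-labelled replicate 1 stood off from the other 5 libraries for Edem1. Herpud1, a scaffold of the ligase complex, averaged 91.6 ± 11.05 CPM in the KO-labelled and 102.0 ± 7.68 CPM in the WT-labelled libraries (SD, n = 3 each).

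Fold changes were more scattered in the ATF4 arm than in the ATF6/XBP1 arm. The ATF4 arm had 2 members that rose and 0 that fell among 14, against 13.7% of all tested genes in each direction. Its median log2 fold change was −0.03, with a median absolute size of 0.48. Leaving out WT-labelled replicate 1 gave 5 that rose and 2 that fell, where 22.0% of all tested genes rose and 20.8% fell. Leaving out KO-labelled replicate 1 gave 3 and 0, where 18.4% of all tested genes were called. Leaving out any other single library gave 1 and 0, beside the shares of all tested genes given above. Of the arm's members that did not pass, Cebpg and Nupr1 were lower at an unadjusted p under 0.05, and DESeq2 called 1 lower. In all, 4 of 14 had an unadjusted p under 0.05, against 39.8% of all tested genes, and DESeq2 called 33.7% of all tested genes. The ATF6/XBP1 arm had a median of −0.07 and a median absolute size of 0.18. The 95% interval lay inside a 2-fold difference for 5 of 14 ATF4 arm members and for 16 of 17 ATF6/XBP1 arm members, Calr being the exception. ATF4 arm members were less abundant, with a median of 56.5 CPM against 282 CPM, and their median standard error was larger, 0.26 against 0.16 on the log2 scale. The difference between the arms was not tested. Per kilobase of exon, the most abundant members were Calr at 656 ± 38.7, Hspa5 at 420 ± 30.1 and Hsp90b1 at 388 ± 37.5 RPKM in the KO-labelled group and at 1059 ± 256, 371 ± 4.22 and 405 ± 3.11 RPKM in the WT-labelled libraries. The difference between Hspa5 and Hsp90b1 was smaller than the larger of their SDs in the KO-labelled group, whereas Hspa5 lay below Hsp90b1 by more than either SD in the WT-labelled group. Among the ATF4 arm, Atf4 at 195 ± 35.9 RPKM in the KO-labelled and 191 ± 5.75 RPKM in the WT-labelled libraries stood highest, beside Phgdh at 192 ± 10.2 and 109 ± 68.3 RPKM.

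**Figure D3:**
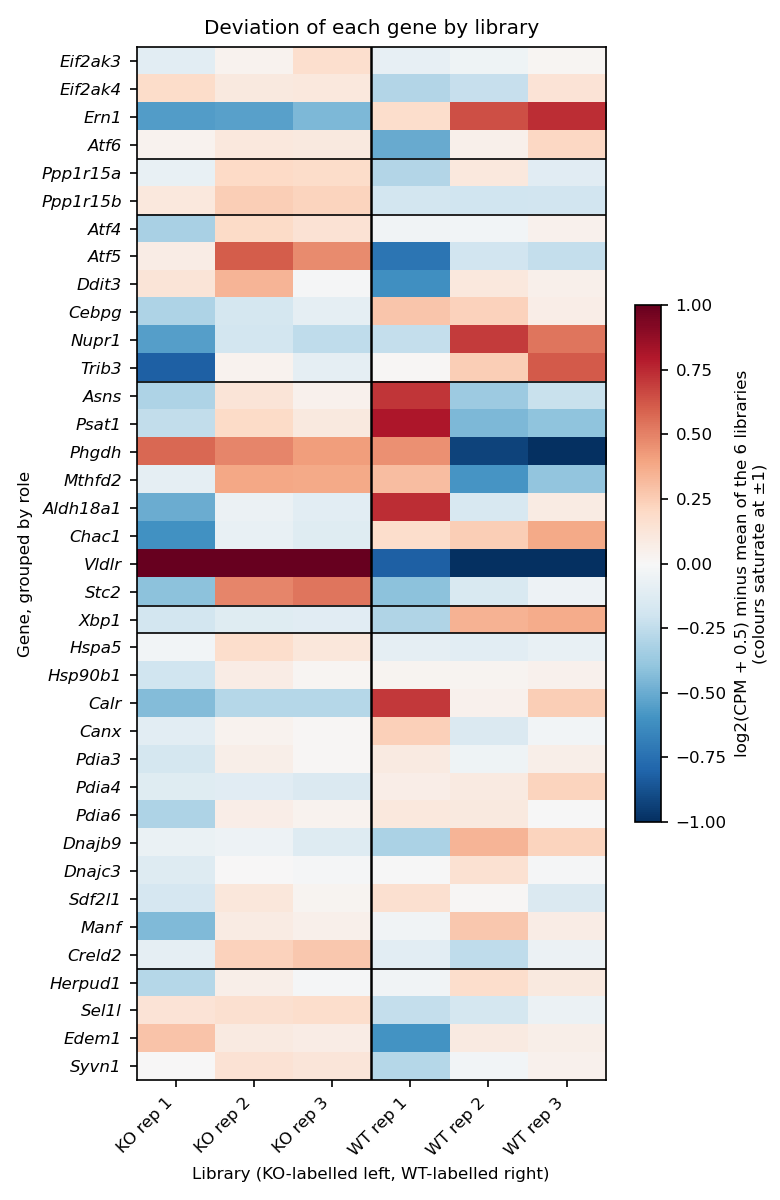
Each cell shows log2(CPM + 0.5) of 1 gene (y axis, grouped by role) in 1 library (x axis, KO-labelled left and WT-labelled right) minus the mean of the 6 libraries, with colours that saturate at ±1. Asns, Psat1, Phgdh, Mthfd2 and Aldh18a1 are higher in WT-labelled replicate 1 than in WT-labelled replicates 2 and 3, and Xbp1, Atf6, Ddit3 and Edem1 are lower there. Most chaperones stay pale throughout.

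WT-labelled replicate 1 differed from its companions in 12 of the 37 members by more than 0.5 on the log2(CPM + 0.5) scale. Asns, Psat1, Phgdh, Mthfd2, Aldh18a1 and Vldlr lay above, and Atf6, Ddit3, Nupr1, Xbp1, Dnajb9 and Edem1 below both of the other WT-labelled replicates. KO-labelled replicate 1 lay below its companions by as much in 2 members, Trib3 and Stc2, and above them in 0. The share of all tested genes with such a step was not counted. The median absolute difference of WT-labelled replicate 1 from the mean of its companions was 0.29 over the members and 0.38 over all tested genes. It was 0.73 in the ATF4 arm and 0.18 in the ATF6/XBP1 arm. For KO-labelled replicate 1 it was 0.21 over the members and 0.22 over all tested genes. Without WT-labelled replicate 1, edgeR called 6 members higher and 6 lower, 32.4% of the 37, where 42.8% of all tested genes were called. The 6 that rose were Vldlr, Atf5, Ppp1r15b, Phgdh, Psat1 and Mthfd2. The 6 that fell were Ern1, Xbp1, Nupr1, Dnajb9, Cebpg and Calr. When the test used replicates 2 and 3 alone, edgeR placed 10 higher and 8 lower, 48.6% of the members against 52.9% of all tested genes. KO-labelled replicates 2 and 3 are the close pair described above. With that pair summed into 1 sample, and with replicate 1 of both groups kept in, Vldlr rose and Ern1 fell, 2 of 37 members where 15.3% of all tested genes were called. Stc2 joined the genes that rose without KO-labelled replicate 1, where 18.4% of all tested genes were called.

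The groups were also compared within replicate 1 and within replicates 2 and 3, as differences of log2(CPM + 0.5) and without a test. Asns differed by −1.03 in replicate 1 and by 0.38 in replicates 2 and 3, Psat1 by −1.05 and 0.57, and Mthfd2 by −0.40 and 0.87. The KO-labelled libraries were lower for these 3 enzymes in replicate 1 and higher in replicates 2 and 3. Phgdh, at 0.11 and 1.42, and Aldh18a1, at −1.23 and −0.04, had the same sign in both. Ern1 differed by −0.74 and −1.19, Atf5 by 0.81 and 0.75, Ppp1r15b by 0.29 and 0.43, and Vldlr by 2.45 and 3.06. Since the groups did not overlap for these last 4 genes, their signs could not differ. The sign differed for 13 of 37 members, 4 of 14 in the ATF4 arm and 7 of 17 in the ATF6/XBP1 arm, and for 4036 of the 12126 tested genes. Gapdh was higher in replicate 1 of both groups in the values above. The summed myeloid marker level in replicate 1 was the highest of the KO-labelled group (4662 CPM) and the lowest of the WT-labelled group (1102 CPM). The part of either in these differences was not tested.

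**Figure D4:**
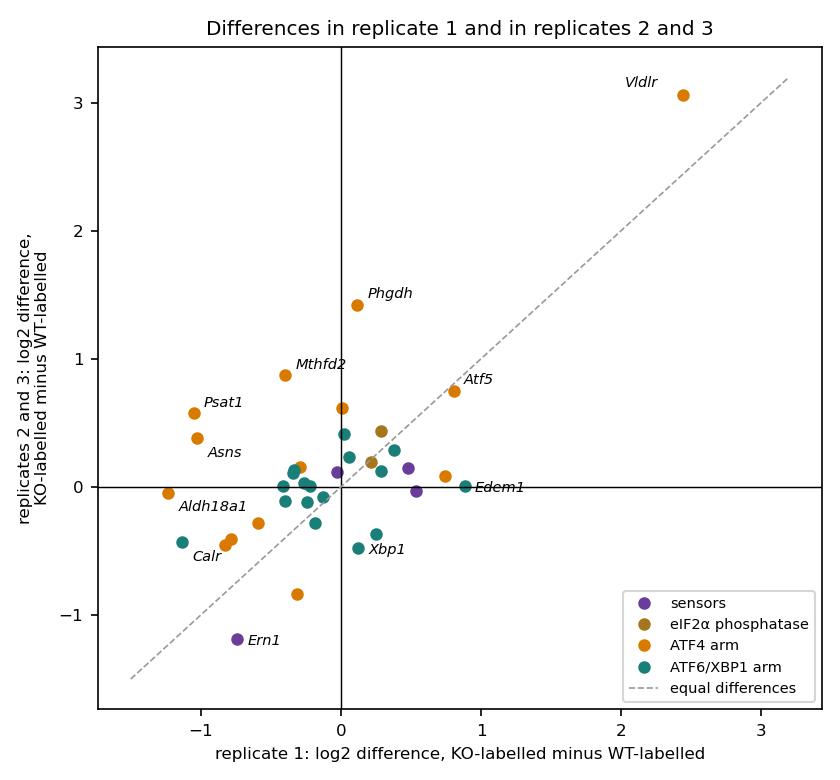
Each point is 1 of the 37 genes, with its log2(CPM + 0.5) difference, KO-labelled minus WT-labelled, in replicate 1 on the x axis and in replicates 2 and 3 on the y axis, coloured by arm. Vldlr, Atf5 and Ern1 lie near or beyond the dashed line of equal differences with 1 sign, while Psat1, Asns and Mthfd2 lie at negative x and positive y.

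Other genes of the same pathways were counted from 11 lists with 106 genes, of which 100 were tested. In all, 9 rose and 6 fell, against 13.7% of all tested genes in each direction. At an unadjusted p under 0.05 there were 11 higher and 12 lower, against 39.8% of all tested genes in either direction. Without single libraries the counts ranged from 3 to 23 and from 3 to 12. The upper ends were those without WT-labelled replicate 1, with 101 genes tested, where 22.0% of all tested genes rose and 20.8% fell. Amino acid transporters included 2 that rose and 0 that fell of 8, with 2 lower at an unadjusted p under 0.05 and 0 lower by DESeq2 or limma-voom. Slc7a11, the cystine importer, was at 46.5, 35.3 and 36.6 CPM in the KO-labelled and 15.3, 8.50 and 11.5 CPM in the WT-labelled libraries (log2 fold change 1.75, SE 0.24, edgeR adjusted p = 0.0024). Slc1a5, a glutamine transporter, averaged 223 ± 40.7 CPM in the KO-labelled and 125 ± 18.0 CPM in the WT-labelled libraries (adjusted p = 0.014). Slc7a11 was called higher under all 20 alternatives. Slc1a5 lost its call without replicate 2 or 3 of either group (adjusted p up to 0.063).

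Further enzymes of amino acid and one-carbon metabolism included 4 that fell and 0 that rose of 9, against 13.7% of all tested genes in each direction. In this list 0 were higher at an unadjusted p under 0.05 or by DESeq2 or limma-voom. With WT-labelled replicate 1 left out edgeR placed 1 higher and 4 lower, where 42.8% of all tested genes were called. In replicates 2 and 3 alone it placed 4 higher and 4 lower, where 52.9% were called. Gpt2, an alanine transaminase, averaged 31.8 ± 3.83 CPM in the KO-labelled and 62.8 ± 2.77 CPM in the WT-labelled libraries. Pck2, the mitochondrial PEP carboxykinase, averaged 39.4 ± 4.57 CPM in the KO-labelled and 76.1 ± 8.45 CPM in the WT-labelled libraries. Pycr1, which completes proline synthesis, was at 2.61, 4.72 and 5.07 CPM in the KO-labelled and 15.8, 16.2 and 11.7 CPM in the WT-labelled libraries. The groups did not overlap for these 3 genes (edgeR adjusted p = 0.0022, 0.0037 and 0.0052). Bcat1, a branched-chain transaminase, was at 0.54, 1.08 and 1.91 CPM in the KO-labelled and 13.6, 3.79 and 4.02 CPM in the WT-labelled libraries (adjusted p = 0.029), but not when KO-labelled replicate 1 or 2 was left out (adjusted p up to 0.10).

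Stress-induced ATF4 targets outside the 37 included 3 that rose and 0 that fell of 9, against 13.7% of all tested genes in each direction. Ero1l, the oxidase that forms disulfide bonds in the ER, averaged 338 ± 2.45 CPM in the KO-labelled and 189 ± 18.4 CPM in the WT-labelled libraries. Ddit4 and Sesn2, inhibitors of mTORC1, averaged 90.9 ± 21.1 and 50.6 ± 6.26 CPM in the KO-labelled group and 47.6 ± 6.68 and 34.6 ± 1.01 CPM in the WT-labelled libraries. The edgeR adjusted p of Ero1l, Ddit4 and Sesn2 was 0.0037, 0.015 and 0.021. Ddit4 did not pass when KO-labelled replicate 2 or 3, or replicate 3 of the WT-labelled group, was left out (up to 0.060). Of the single libraries left out in turn, only WT-labelled replicate 1 left the call of Sesn2 in place (adjusted p up to 0.070 otherwise). No member of this list was lower at an unadjusted p under 0.05 or by DESeq2 or limma-voom. Of 13 genes for tRNA synthetases and tRNA export, Sars, the serine enzyme, rose (330 ± 5.33 CPM in the KO-labelled and 168 ± 15.3 CPM in the WT-labelled libraries, adjusted p = 0.0017), and no other passed.

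ER folding genes outside the 37 went both ways, with 2 that rose and 2 that fell of 16, against 13.7% of all tested genes in each direction. The cochaperone gene Dnajb11 averaged 249 ± 8.33 CPM in the KO-labelled and 182 ± 12.9 CPM in the WT-labelled libraries. The prolyl isomerase gene Fkbp11 averaged 40.8 ± 4.73 CPM in the KO-labelled and 20.6 ± 8.01 CPM in the WT-labelled libraries. Hspa13, an HSP70 relative, averaged 75.9 ± 6.65 CPM in the KO-labelled and 111 ± 4.51 CPM in the WT-labelled libraries. The isomerase gene Txndc5 averaged 155 ± 7.80 CPM in the KO-labelled and 240 ± 53.5 CPM in the WT-labelled libraries. Their edgeR adjusted p ranged from 0.014 to 0.035. Hspa13 lost its call without KO-labelled replicate 2 (adjusted p = 0.074). Dnajb11, Fkbp11 and Txndc5 lost theirs without any single KO-labelled library, and also without WT-labelled replicate 2 for Dnajb11, 3 for Txndc5 and either for Fkbp11 (adjusted p up to 0.13). Sec24d, a subunit of the coat of vesicles that leave the ER, rose among 12 genes of ER translocation and export (137 ± 21.5 CPM in the KO-labelled and 77.3 ± 11.9 CPM in the WT-labelled libraries, adjusted p = 0.013, and up to 0.058 without KO-labelled replicate 2 or 3). Lists of 9 other ERAD genes, 8 other ER sensors and processing enzymes, 2 other eIF2α kinases, 5 mitochondrial stress genes and 9 cytosolic heat shock genes had 0 calls by edgeR or limma-voom. DESeq2 called 1 of these genes, in the ERAD list, and at an unadjusted p under 0.05 there were 2 higher in the ERAD list and 1 lower in the heat shock list. Without WT-labelled replicate 1 edgeR called 1 higher and 1 lower in the ERAD list and as many among the sensors and processing enzymes. It called 2 higher in the mitochondrial list, 2 higher in the heat shock list and none among the kinases. In that fit 22.0% of all tested genes were higher and 20.8% lower. The most abundant genes of these 5 lists were Os9 (adjusted p = 0.63), Tmbim6 (0.42), Eif2ak2 (0.22), Hspa9 (0.88) and Hspa8 (0.82).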

How the data were processed

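Per the labels, libraries were made from total RNA with the TruSeq stranded mRNA kit. The authors deposited 1 table of raw counts, with a gene per line and a library per column. Per the submitters' processing notes, FastQC 0.11.7, HISAT2 2.0.5 and featureCounts 1.5.2 were used with mm10. Which annotation and strand setting were used is not given in the sources used here.

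These counts went into edgeR 4.0.16 under R 4.3.3, with TMM scaling and the default low-count filter, which kept 12126 of 24062 genes. The quasi-likelihood test used robust dispersions, and p-values were Benjamini-Hochberg adjusted over all genes tested, with a threshold of 0.05. Fold changes are KO-labelled over WT-labelled. DESeq2 1.42.0, limma-voom (limma 3.58.1), other scalings and filters, a replicate block, left-out libraries and summed libraries were the alternatives, 20 in all. The test scripts were checked on simulated counts of 12126 genes, drawn independently with the dispersions of these data. In them 100 genes changed 2-fold and 100 changed 4-fold. There edgeR recovered 36% of the 2-fold and 91% of the 4-fold changes, with 6 false calls among 133. For limma-voom the values were 30% and 91%, with 6 false calls among 127. For DESeq2 they were 70% and 96%, with 43 false calls among 209. In that simulation a gene that changed 2-fold could fail to pass. It held a far smaller share of changed genes than the 27.3% called in these data, and no shift of replicate 1. The recovered shares therefore need not hold for these data. RPKM used merged exon lengths from GENCODE vM21, and Ddit3, listed there more than once, was taken at its longer locus. Shared sequence was measured as 31-base words found in transcripts of other genes. Promoters came from RefSeq on GRCm38.p6.

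The members and gene lists were chosen with earlier results of these data known. The text names Tnfaip3, all members, and from each further list up to 4 called genes in order of p, or else the most abundant. Per-library values of members outside the called genes, the sensors, Atf4, Ddit3, Xbp1 and Hspa5 were chosen after they were seen. The reported test had no replicate block.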

Additional observations from a re-analysis of the deposited data

How the results depend on the processing

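Under the 20 alternatives, values of single members kept their direction and side of the threshold in 669 cases. They lost a call in 20, gained one without a change of sign in 28 and changed sign in 23. Among the last, Asns and Psat1 in replicates 2 and 3 alone and Psat1 without WT-labelled replicate 1 also gained a call. No gene called over all libraries changed sign. The log2 fold changes of Asns and Psat1, −0.16 and −0.08 over all libraries, became 0.37 and 0.56 from replicates 2 and 3 only, where Atf6 was at −0.049, Edem1 at −0.0057, Canx at 0.092, Pdia3 at 0.012 and Sdf2l1 at 0.12. Psat1 was at 0.052 with limma-voom and at 0.045 with the block and with a replicate 1 term. Atf4 was at −0.044 with the KO-labelled pair summed and −0.0085 with both pairs summed. With a library left out the range was −0.36 to 0.27 for Asns, −0.30 to 0.46 for Psat1, −0.060 to 0.18 for Atf4, −0.049 to 0.28 for Atf6, −0.14 to 0.071 for Canx, −0.11 to 0.019 for Hsp90b1, −0.11 to 0.0058 for Pdia3 and −0.096 to 0.063 for Sdf2l1. Members called higher and lower numbered 3 and 1 over all libraries. They were 1 and 2 with library totals, 3 and 3 with upper-quartile scaling, 4 and 3 with DESeq2, 4 and 2 when replicate 1 had its own term, 10 and 8 from replicates 2 and 3 without replicate 1, 1 and 1 with KO-labelled replicates 2 and 3 summed, 1 and 0 with replicates 2 and 3 summed in each group, and 1 and 1 at an adjusted p under 0.01. Leaving out 1 library gave 1 to 6 higher and 1 to 6 lower, with both upper ends without WT-labelled replicate 1.

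In the ATF4 arm 2 rose and 0 fell. The number higher was 1 with library totals, with either summing and at 0.01, and 7 in replicates 2 and 3 alone, and 1 to 5 with a library left out. The number lower was 1 with upper-quartile scaling, DESeq2 or a separate replicate 1 term, 3 in replicates 2 and 3 alone, and 0 to 2 with a library left out. The arm's median log2 fold change of −0.03 became 0.25 in replicates 2 and 3 alone, and ranged from −0.15 to 0.18 with a library left out, the upper end without WT-labelled replicate 1. In the ATF6/XBP1 arm, with 0 calls, the number higher was 1 with DESeq2 and 2 in replicates 2 and 3 alone. The number lower was 1 with library totals, upper-quartile scaling or DESeq2, 4 in replicates 2 and 3 alone, and 0 to 3 with a library left out. The cause of these changes was not tested.

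Over all genes 1660 were higher and 1656 lower. The counts were 3149 and 3309 in replicates 2 and 3 alone, 982 and 945 with KO-labelled replicates 2 and 3 summed, 543 and 518 with both groups summed, and 821 and 873 at 0.01. They ranged from 939 to 2712 and from 916 to 2568 with a library left out. The 9 and 6 calls among further pathway genes, whose alternatives were added after the data were seen, became 34 and 22 in replicates 2 and 3 alone, 3 and 3 with the KO-labelled pair summed, 1 and 0 with both summed, 3 and 3 at 0.01, and 3 to 23 and 3 to 12 with a library left out. With the replicate number as a block, 989 genes were higher and 1034 lower, 5 further pathway genes were higher, and Ppp1r15b lost its call (adjusted p = 0.12). Same-numbered libraries deviated with correlations of −0.0060, −0.055 and 0.052 for replicates 1, 2 and 3. With 3 libraries in each group these correlations cannot show whether the numbers pair the libraries. Tnfaip3 kept its call under all 20 alternatives.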
